A study of Mus musculus with 26 samples.

Results

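The 8 melanomas taken early during T cell therapy (EDT tumours) were compared with each other, out of 26 samples in the series. They were the samples titled Early-during-treatment, with the order of the tumours chosen by their own measured values, a CD3 score that is the mean normalized log2 signal of the genes Cd3d, Cd3e, Cd3g and Cd247. HCmel3 is a mouse melanoma, grown here in animals of strain C57BL6 with no other allele named. All 8 tumours had received the same combined treatment: 1 dose of cyclophosphamide, CD8+ pmel-1 T cells given into a vein, which carry a transgenic T cell receptor against the melanocyte protein gp100, an adenovirus vaccine that expresses gp100, and CpG with polyI:C to stimulate innate immunity. They were excised between day 12 and day 20 of treatment, and no day is given for a single tumour, so the day and the score cannot be told apart. The pieces of tumour and skin were frozen whole, and no label says whether the 8 were separate animals; a p-value here rests on the scatter of these pieces, part of which can be technical. Total RNA was hybridized to Illumina MouseWG-6 v2.0 bead arrays, with 1 array for each tumour.

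CD3 delta, epsilon, gamma and zeta (the product of Cd247) are the chains that carry the signal of the T cell receptor into the cell, and they are made by T cells of every kind. The transferred cells recognise gp100, which the gene Pmel encodes, when a fragment of it is shown on MHC class I at the tumour cell surface. Activated CD8+ T cells kill with perforin and granzymes and release interferon gamma, which raises antigen presentation and chemokines in the cells around them. Melanoma cells can also lose their melanocyte programme, which is run by the transcription factor MITF, and with it the pigment antigens.

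The CD3 score was 7.37 in tumour 6, 7.68 in tumour 5, 8.15 in tumour 7, 8.80 in tumour 1, 8.99 in tumour 4, 9.35 in tumour 3, 9.68 in tumour 8 and 10.97 in tumour 2, where the numbers are the replicate numbers of the labels. This range of 3.60 on the log2 scale is a 12.1-fold range of signal (median 8.90, SD 1.16, n = 8). Tumour 2 lay apart at the top, and tumours 6, 5 and 7 lay lowest. Cd3d ran between 8.47 and 11.95, Cd3e between 8.33 and 11.59 and Cd3g between 8.03 and 12.27, and each was detected on 8 of 8 arrays. Cd247 ran between 4.45 and 8.06 and was detected on 5 of 8, so that in tumours 6, 5 and 7 its signal of 4.64, 4.45 and 4.56 was near background. Across the 8 tumours the genes correlated pairwise with r between 0.923 and 0.989, given as a description because these values chose the order and share the arrays. A second Cd3e probe ran between 7.50 and 11.06, and 2 further Cd247 probes were detected on 0 arrays. Cd3g, Cd3d and Cd3e are neighbours on mouse chromosome 9, and Cd247 lies on chromosome 1.

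**Figure D1:**
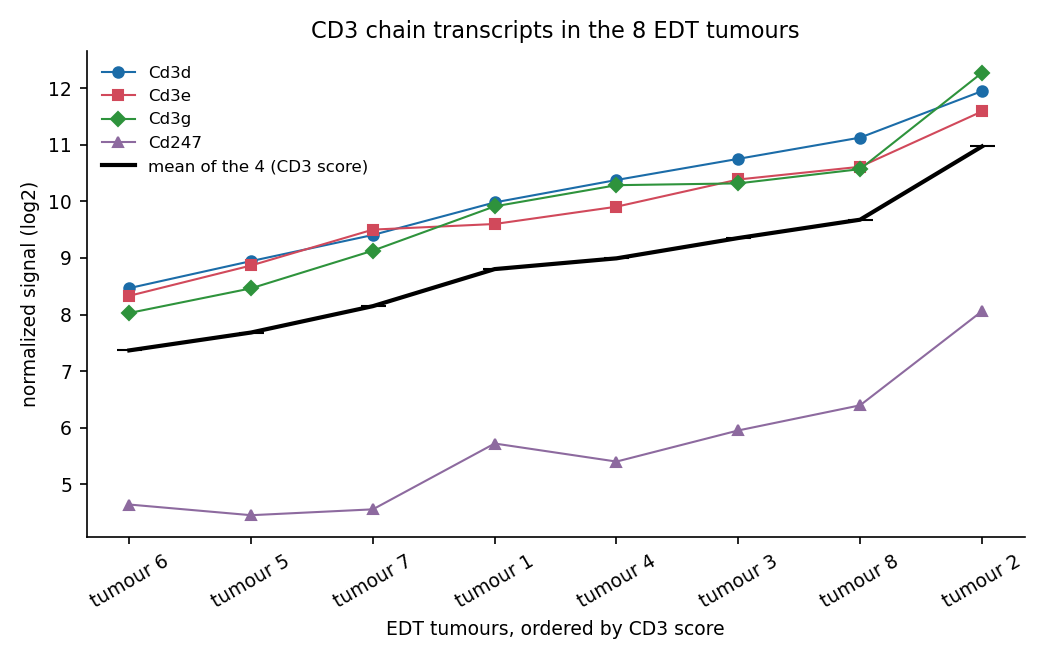
Normalized log2 signal (y axis) of Cd3d, Cd3e, Cd3g and Cd247 and of their mean, the CD3 score (thick line), in the 8 EDT tumours, ordered by that mean (x axis). The mean lies between 7.37 in tumour 6 and 10.97 in tumour 2, and Cd247 lies below the other genes, near background in tumours 6, 5 and 7.

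For every other gene a slope on the score was fitted over the 8 tumours. A slope of 1 means that a gene's log2 signal changed as much as the CD3 signal, a slope of 0 that it did not follow the score, and a negative slope that it was lower where CD3 was higher. In a whole tumour piece, fewer cells of a type and less RNA per cell cannot be told apart. Of 9683 genes tested, 576 rose with the score (5.95% of those tested) and 610 fell with it (6.3%) at a limma adjusted p of 0.05, 12.2% in all, and 2987 (30.8%) had an unadjusted p under 0.05. At 2-fold or more per unit of score, 30 rose and 4 fell, and the median slope of all tested genes was -0.03. The arrays came from 3 slides: tumours 1, 2 and 3 shared one, tumours 4, 5 and 6 another, and tumours 7 and 8 the other. Of the 1186 genes that passed, 1113 (93.8%) had the same sign of slope on all 3 slides, against 41.2% of all tested genes. The same tumours made these calls, so agreement was favoured in advance and the contrast is no independent evidence. On the slide of tumours 7 and 8 a slope is only the difference between them. With slide as a block 487 rose (5.03%) and 339 fell (3.5%), 8.53% in all, and 571 genes passed in both fits in the same direction. With median centring in place of quantile normalization 508 rose and 256 fell, so that 66.5% of the calls were rises, against 48.6% in the fit reported. Tumour 2 carried much of the range: without it 249 rose (2.57%) and 99 fell (1.02%), 3.59% in all, and 244 of the 1186 still passed. Without tumour 6 the counts were 168 and 142, and 147 genes passed in every fit that left out 1 tumour, 89 rising and 58 falling. Counts of list members below are to be read against the counts over all genes in the same fit.

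Arrays detected between 15008 and 16830 probes. The number of detected probes correlated with the score with Pearson's r = 0.496 (exact permutation p = 0.209, adjusted p = 0.296 over 3 array measures; Spearman's rho = 0.476, exact permutation p = 0.243, adjusted p = 0.36). For the raw signal's 95th percentile the same gave r = -0.426 (exact permutation p = 0.292, adjusted p = 0.296; rho = -0.524, exact permutation p = 0.197, adjusted p = 0.36) and the raw median r = -0.416 (exact permutation p = 0.296, adjusted p = 0.296; rho = -0.381, exact permutation p = 0.36, adjusted p = 0.36). Without tumours 2 and 6, the farthest from the median score, r was 0.542, -0.0805 and 0.167 (exact permutation p = 0.261, 0.856 and 0.768). With the number of detected probes as a covariate 154 genes rose and 122 fell. General genes did not pass: Actb, which encodes beta-actin, had a slope of -0.07 ± 0.09 (SE, limma adjusted p = 0.613) and Gapdh, a glycolytic enzyme, of -0.02 ± 0.06 (limma adjusted p = 0.856), and the sign of Actb turned with slide as a block (0.12) and that of Gapdh with the authors' processed values (0.05). Another Actb probe, detected on 8 arrays at 12.57 to 14.41, gave -0.34 and a further one -0.11, so the Actb probes differed in size of slope.

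Of 32 genes listed for T cell identity and receptor signalling, 24 had a probe with 1 symbol and 17 passed the detection filter. All 17 of these rose (against 5.95% of all genes), with slopes between 0.44 and 1.18 and a median of 0.91. Many of these genes mark the same cells as CD3, so their rise is a check of the score. Some, such as Cd2 and Thy1, are also carried by other cells. Cd8b1, the beta chain of the CD8 co-receptor, had signals of 9.44, 9.78, 10.41, 10.65, 11.28, 11.59, 11.99 and 13.12 in the order of rising score, without a step out of order. Its slope was 1.03 ± 0.06 (SE, n = 8, limma adjusted p = 8.84e-05). A second Cd8b1 probe gave 1.08 and another, detected on 8 arrays at 10.17 to 10.60, gave 0.03, so the probes disagreed. Lat, the membrane adaptor that couples the receptor to its downstream kinases, ran between 5.28 and 9.35 (slope 1.16 ± 0.08, limma adjusted p = 0.000238). Sh2d2a, a T cell adaptor, had a slope of 0.98 ± 0.08 (limma adjusted p = 0.000329), and Cd2, an adhesion receptor of T and natural killer cells, one of 1.18 ± 0.13 (limma adjusted p = 0.00134).

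Trbv13-2, a variable segment of the receptor beta chain, ran between 10.72 in tumour 6 and 13.97 in tumour 2 with a median of 12.38, and its slope was 0.97 ± 0.08 (limma adjusted p = 0.000369). Its signal rose at every step of the order. Among co-stimulatory receptors, Icos had a slope of 0.44 ± 0.08 (limma adjusted p = 0.0117) and Cd28 of 0.50 ± 0.09 (limma adjusted p = 0.0102), against 0.91 ± 0.09 for Cd27 (limma adjusted p = 0.00118). Icos and Cd28 also had lower signals than Cd27, with medians of 6.60 and 5.91 against 8.65. Whether these slopes differ from each other was not tested. Cd4 and Cd8a did not pass the detection filter, and Trac and Lck had no probe with 1 symbol. In the fit with slide as a block 15 of the 17 passed and the median was 0.90, and without tumour 2 11 passed (median 0.87). Ptprc, the leukocyte common antigen CD45, also rose, between 5.47 and 7.25 (slope 0.49 ± 0.06, limma adjusted p = 0.00195). Its signal was low, which can flatten a slope, and a difference from the T cell genes was not tested.

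**Figure D2:**
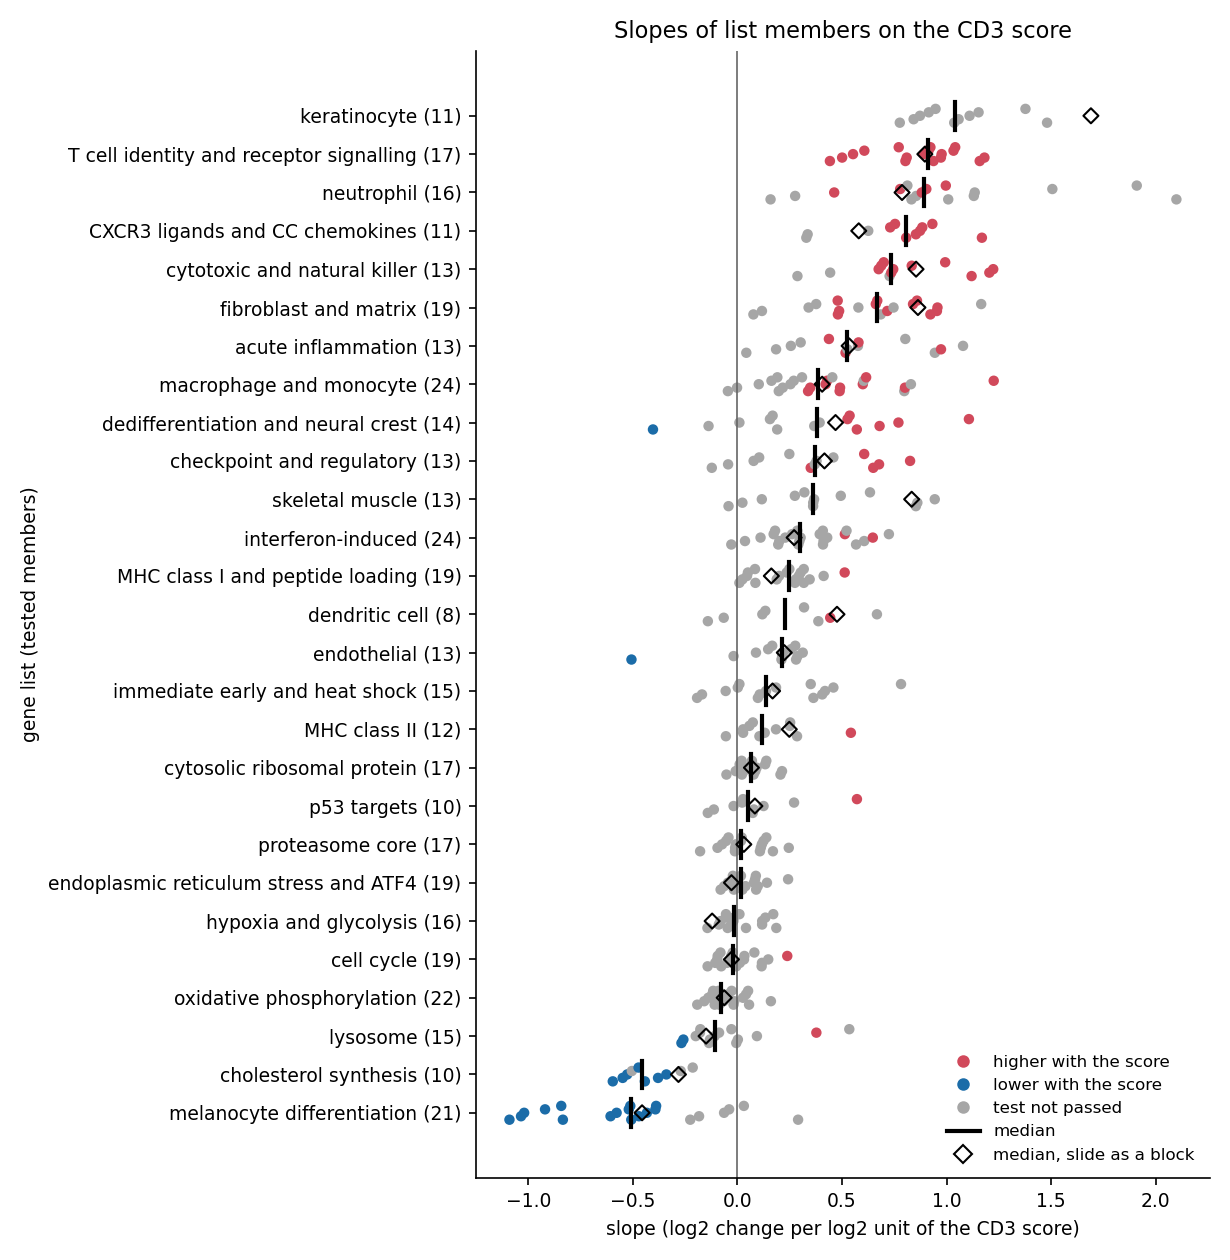
Slope of each tested member (points) of the gene lists with at least 8 tested members, in log2 change per log2 unit of CD3 score (x axis), with the list's median (bar) and its median with slide as a block (diamond), lists in order of median (y axis, tested members in brackets). All 17 T cell points lie right of 0 and are coloured as rising, 15 of 21 melanocyte points are coloured as falling, and none of the 11 keratinocyte points passed although their median is 1.04.

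Many genes of the cytotoxic and natural killer list also rose. Of 21 listed, 13 passed the filter, 10 of them rose (76.9%, against 5.95% of all genes) and 0 fell, with a median slope of 0.74. Klrb1c, a receptor gene of natural killer cells, was detected on 3 arrays and did not pass (slope 0.29 ± 0.20, limma adjusted p = 0.351). Tbx21 did not pass either (limma adjusted p = 0.0528), and Ncr1, Eomes and Klrg1 were below the detection filter. Whether natural killer cells followed the score was not tested. Klrd1, which encodes CD94, a receptor subunit on natural killer cells and activated CD8+ T cells, had signals of 7.05, 7.21, 7.66, 8.70, 9.09, 9.36, 9.70 and 11.29 in the order of rising score (slope 1.22 ± 0.06, limma adjusted p = 2.58e-05). Nkg7, a protein of cytotoxic granules, ran between 8.36 and 12.76 with a slope of 1.20 ± 0.06 (limma adjusted p = 2.58e-05). Klrd1 followed the order of the score at every step, and Nkg7 at every step but one, where tumours 3 and 8 had 10.87 and 10.86. Ctsw, a cathepsin of cytotoxic lymphocytes, had a slope of 0.99 ± 0.08 (limma adjusted p = 0.000369). Ifng, which encodes interferon gamma, behaved as a step: it was 5.18, 5.16 and 5.79 in tumours 6, 5 and 7, and between 7.27 and 7.47 in the other 5. Its slope was 0.74 ± 0.18 (limma adjusted p = 0.0268, and 0.163 with slide as a block), and it was not detected on 2 of 8 arrays. Prf1, perforin, did not follow the order (7.23 in tumour 5, 6.99 in tumour 1, 10.86 in tumour 2, slope 0.73 ± 0.24, limma adjusted p = 0.08). A second Prf1 probe, detected on 3 arrays, ran between 4.55 and 9.82 with a slope of 1.24.

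The granzyme calls rested on tumour 2. Gzmk rose between 4.56 and 9.35, with 6.68 as the next value below tumour 2 (slope 1.12 ± 0.19, limma adjusted p = 0.00784; 0.65 without tumour 2, limma adjusted p = 0.0941). Gzmd had the steepest slope of all genes that passed, 2.2 ± 0.52 (limma adjusted p = 0.0283), with 13.63 in tumour 2, 9.30 in tumour 8 and between 4.56 and 5.99 in the other 6, and was detected on 5 arrays. Without tumour 2 it did not pass (limma adjusted p = 0.368). Gzmb did not pass the detection filter, Gzma had no probe with 1 symbol, and Gzmd belongs to a cluster of near-identical granzyme genes whose transcripts its probe may share. Under the slide block 7 of the 13 cytotoxic genes passed, and without tumour 2 8 did.

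Several inhibitory receptors of activated T cells rose. Of 16 checkpoint and regulatory genes 13 were tested, 5 rose (38.5%, against 5.95% of all genes) and 0 fell, with a median slope of 0.37. The 5 were Ctla4 (4.44 to 7.46, slope 0.83 ± 0.13, limma adjusted p = 0.00691), Lag3 (6.56 to 8.98, slope 0.68 ± 0.12, limma adjusted p = 0.0104), Cd96, Havcr2, which encodes TIM-3, and Tigit. Havcr2 had a slope of 0.61 ± 0.08 (limma adjusted p = 0.00265). Cd96 had one of 0.65 ± 0.09 (limma adjusted p = 0.00316), with 7.28 in tumour 2, 5.71 as the next value and detection on 4 arrays. Cd274, which encodes the PD-1 ligand PD-L1, was 9.83, 9.38, 10.32, 11.29, 11.79, 11.24, 11.81 and 10.68 in the order of rising score. It was high in tumours 1, 4, 3 and 8 and lower again in tumour 2, and its slope of 0.46 ± 0.21 did not pass (limma adjusted p = 0.17). Without tumour 2 it was 1.03 and passed (limma adjusted p = 0.0190). Foxp3, the factor of regulatory T cells, lay between 9.24 and 9.68 (slope -0.04 ± 0.07, limma adjusted p = 0.69), and its 3 other probes were detected on at most 1 array. Pdcd1 and Il10 did not pass the detection filter.

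Interferon-induced genes were low in the 3 tumours with the lowest score and were no higher in tumour 2 than in tumour 1. The mean level of the 24 tested genes of 32 listed was 9.10 in tumour 6, 9.24 in tumour 5, 9.57 in tumour 7, 10.46 in tumour 1, 10.38 in tumour 4, 10.34 in tumour 3, 10.44 in tumour 8 and 10.06 in tumour 2. The tumour with the most CD3 signal therefore lay below the 4 next to it. The median slope was 0.30, 2 genes rose and 0 fell, a share of 8.33% against 5.95% of all genes. These were Isg15, a ubiquitin-like modifier (7.90 to 10.13, slope 0.65 ± 0.13, limma adjusted p = 0.0158), and Ifi47, a GTPase (slope 0.51 ± 0.14, limma adjusted p = 0.0389; -0.02 among tumours 1, 2 and 3 alone). Neither Isg15 nor Ifi47 passed with slide as a block (limma adjusted p = 0.117 and 0.183). Without tumour 2 the median was 0.65 and 15 of the 24 rose, against 2.57% of all genes in that fit. Ubd, which encodes the ubiquitin-like protein FAT10, was 10.30 in tumour 6 and 12.86 in tumour 8 but 11.79 in tumour 2, with a slope of 0.57 ± 0.21 (limma adjusted p = 0.111). Irf7, a transcription factor that amplifies interferon responses, had one of 0.61 ± 0.17 (limma adjusted p = 0.0512).

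A pair of GAAA blocks, the core that interferon regulatory factors bind in interferon-stimulated response elements, was searched as GAAA, any 2 bases and GAAA on both strands in promoter windows of 300 bases (250 before and 50 after the start site, RefSeq, GRCm38.p6). It was found for 12 of 22 interferon-induced genes with a window, against 4.01% of the 7855 tested genes that have one and 3.44% of all 32851 windows in the table. Of 435 rising genes with a window 8.51% held it, and of 491 falling genes 2.04%. Isg15, the member with the smallest p, is shown with its 3 overlapping matches in capitals; the window is chr4:156200769-156201068 on the minus strand of GRCm38.p6, printed 5′ to 3′ along the gene. A match is a description of letters, not a measured site.
Isg15: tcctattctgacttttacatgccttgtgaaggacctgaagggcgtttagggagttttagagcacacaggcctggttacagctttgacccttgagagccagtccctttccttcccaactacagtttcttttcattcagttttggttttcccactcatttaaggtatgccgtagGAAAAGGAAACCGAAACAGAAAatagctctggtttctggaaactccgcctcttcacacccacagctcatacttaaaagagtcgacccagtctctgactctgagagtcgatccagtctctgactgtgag

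MHC class I genes were also low in tumours 6, 5 and 7 (list level 10.47 to 10.73) and between 11.03 and 11.38 in the other 5. Of 20 genes of MHC class I and peptide loading 19 were tested, 1 rose and 0 fell (5.26% against 5.95% of all genes), and the median slope was 0.25. The one was Tapbpl, an editor of the peptides that class I presents (8.30 in tumour 6, 10.35 in tumour 3 and 9.82 in tumour 2, slope 0.51 ± 0.14, limma adjusted p = 0.0477). A second Tapbpl probe, detected on 5 arrays, gave 0.11, and among tumours 1, 2 and 3 alone the slope was -0.12. Tap1, a subunit of the peptide transporter, was 8.81, 8.78, 9.07, 9.72, 9.75, 9.85, 9.86 and 9.66 in the order of rising score (slope 0.32 ± 0.09, limma adjusted p = 0.0559). H2-K1, a class I heavy chain, ran between 11.51 and 12.75 (slope 0.30 ± 0.12, limma adjusted p = 0.117). B2m, the light chain that all class I molecules share, was bright and level at 14.25 to 14.86 (slope 0.02 ± 0.08, limma adjusted p = 0.866). A second bright B2m probe gave -0.08. Pmel, described below, was also bright and ran between 12.84 and 15.14. Whether a change in B2m could be seen this near the top of the signal range was not tested. Tapbpl did not pass with slide as a block (limma adjusted p = 0.265). Without tumour 2 the list's median was 0.51 and 6 of the 19 genes rose, against 2.57% of all genes in that fit. In MHC class II 1 of 12 genes rose (8.33%, against 5.95% of all genes), Ifi30, a reductase that opens antigens for class II loading (slope 0.54 ± 0.10, limma adjusted p = 0.0117, and 0.0916 with slide as a block), and the median slope was 0.12. The class II chain H2-Ab1 lay between 13.26 and 14.42 (slope 0.06 ± 0.12, limma adjusted p = 0.792).

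**Figure D3:**
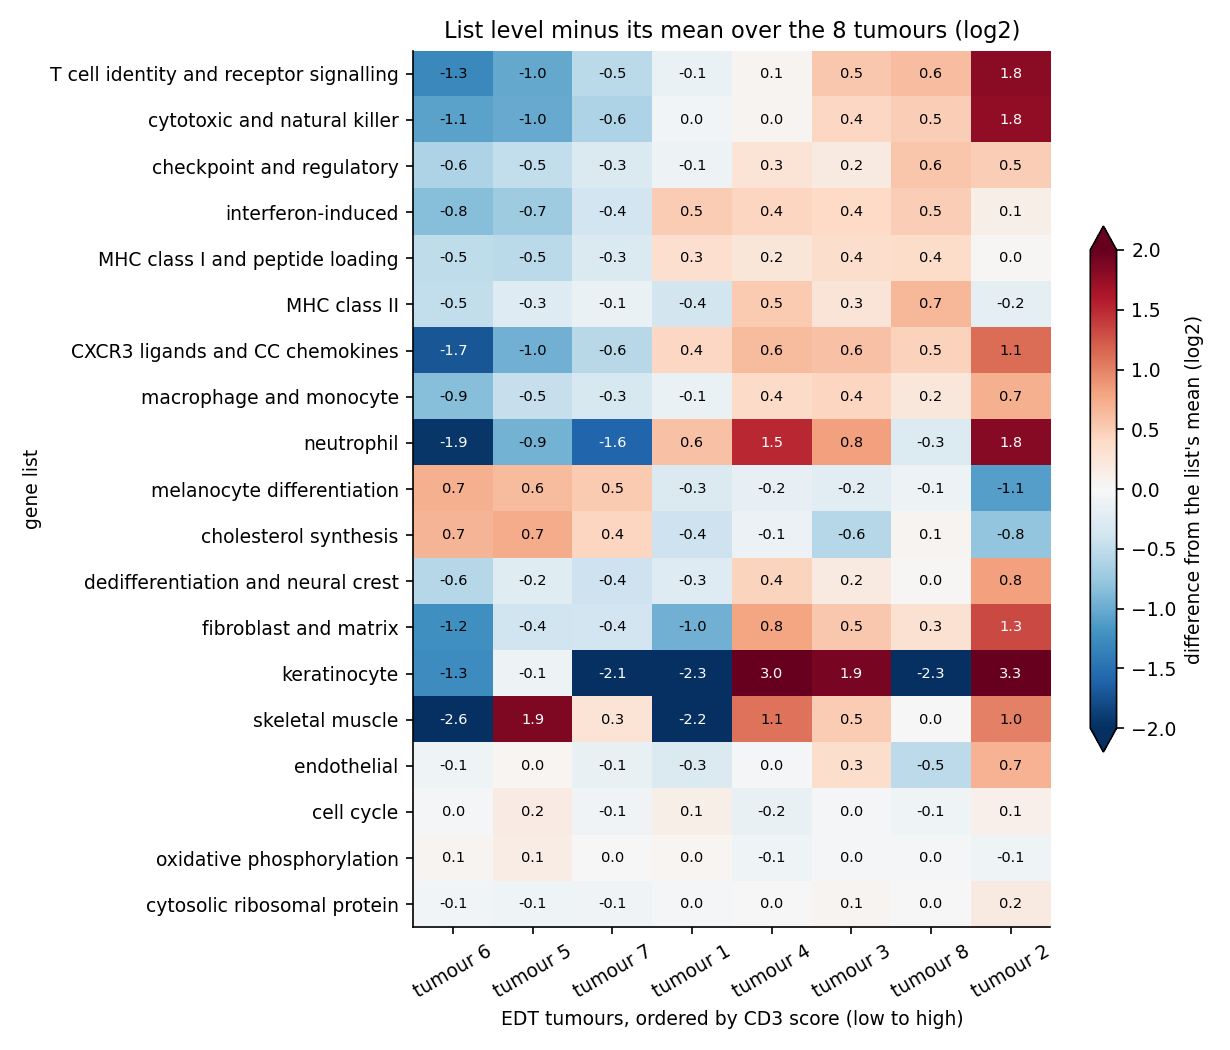
Mean log2 level of each gene list (rows) in each EDT tumour (columns, in order of rising CD3 score), minus the list's own mean over the 8 tumours; red is above that mean and blue below it, with the colour scale ending at 2. T cell and cytotoxic rows climb to tumour 2, interferon and MHC class I rows are low in tumours 6, 5 and 7, highest in tumours 1, 4, 3 and 8 and lower again in tumour 2, the melanocyte row falls, and the keratinocyte row is high in tumours 4, 3 and 2 only.

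Many chemokine genes rose. Of 13 listed 11 were tested, 8 rose (72.7%, against 5.95% of all genes) and 0 fell, with a median slope of 0.81. The 8 were all CC chemokines, which attract monocytes and lymphocytes: Ccl8 (8.71 to 13.61, slope 1.17 ± 0.22, limma adjusted p = 0.0114, and 0.0796 without tumour 2), Ccl7 (slope 0.88 ± 0.15, limma adjusted p = 0.00873), Ccl6 (slope 0.87 ± 0.11, limma adjusted p = 0.0022), Ccl12 (slope 0.85 ± 0.14, limma adjusted p = 0.00744), Ccl2, Ccl9, Ccl4 and Ccl3. The CXCR3 ligands Cxcl9 (slope 0.33 ± 0.20, limma adjusted p = 0.304) and Cxcl10 (slope 0.63 ± 0.21, limma adjusted p = 0.0812) did not pass. Cxcl9 was highest in tumours 4 and 8, at 14.25 and 14.23, and 12.82 in tumour 2, and without tumour 2 both Cxcl9 (slope 0.90, limma adjusted p = 0.0234) and Cxcl10 (slope 1.21, limma adjusted p = 0.0104) passed. Under the slide block 4 of the 11 passed (median 0.58), and without tumour 6 2 did.

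Among macrophage and monocyte genes 10 of 24 tested (27 listed) rose (41.7%, against 5.95% of all genes) and 0 fell, with a median slope of 0.39. Arg1, arginase of alternatively activated and suppressive myeloid cells, had the steepest slope, 1.23 ± 0.24 (limma adjusted p = 0.0127). Its signals were 7.69, 8.36, 8.70, 11.44, 9.63, 10.63, 9.57 and 12.59 in the order of rising score, with tumour 1 above its place, and without tumour 2 it did not pass (limma adjusted p = 0.135). Tyrobp, the signalling adaptor of many myeloid receptors, had a slope of 0.49 ± 0.09 (limma adjusted p = 0.0115) and Fcgr3, a low-affinity IgG receptor, one of 0.43 ± 0.09 (limma adjusted p = 0.0144). C1qb, a complement component of macrophages, had a slope of 0.16 ± 0.10 (limma adjusted p = 0.301) and Trem2, a lipid receptor of macrophages, one of -0.05 ± 0.10 (limma adjusted p = 0.801). Under the slide block 5 passed (median 0.41), with the number of detected probes as a covariate 0 did, and without tumour 6 only 1.

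Neutrophil genes had high slopes and large scatter. Of 22 listed 16 were tested and 5 rose (31.2%, against 5.95% of all genes), with a median slope of 0.89. In other fits 2 rose without tumour 2, 2 without tumour 6 and 3 with slide as a block. Genes of granule proteins led by p: Camp (slope 0.88 ± 0.16, limma adjusted p = 0.0107), Ngp (slope 0.90 ± 0.17, limma adjusted p = 0.0107) and Ltf, lactoferrin (limma adjusted p = 0.0173). Their signals were near background in most tumours, and Ngp and Ltf were detected on 4 arrays. Camp was 8.77 in tumour 2, with 6.65 as its next value. Without tumour 2 its slope was 0.48, and Camp, Ngp and Ltf did not pass (limma adjusted p = 0.136, 0.160 and 0.233). S100a8, the abundant calprotectin subunit of neutrophils, was 7.94 in tumour 6 and 14.12 in tumour 4 with 13.58 in tumour 2 (slope 1.51 ± 0.43, limma adjusted p = 0.0501). Tumours 4 and 2 also had the highest mean levels of the keratinocyte genes described below, 10.21 and 10.48. Which cells made the S100a8 signal was not tested. The neutrophil list's level was 8.22 in tumour 1, 9.15 in tumour 4 and 7.36 in tumour 8, out of the order of the score. In the acute inflammation list 4 of 13 tested genes rose (30.8%, against 5.95% of all genes), and the median slope was 0.53. The 4 were Nfkbia, the feedback inhibitor of NF-kappa-B (slope 0.44 ± 0.10, limma adjusted p = 0.0284), the adhesion gene Icam1 (slope 0.52 ± 0.13, limma adjusted p = 0.0303), the acute phase gene Saa3 (slope 0.97 ± 0.26, limma adjusted p = 0.0386) and Tnfaip3. With slide as a block 1 gene of this list rose, Saa3 (limma adjusted p = 0.0282), and without tumour 2 3 genes rose. Saa3 passed in only 2 of the 8 fits that left out 1 tumour. Among tumours 1, 2 and 3 alone the list's median slope was -0.11. Of 8 dendritic cell genes 1 rose (12.5%, against 5.95% of all genes), Fscn1 (slope 0.44 ± 0.11, limma adjusted p = 0.0284), and of 3 B and plasma cell genes tested 0 changed at the threshold, with Cd79b at 5.40 to 6.30 (limma adjusted p = 0.314).

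Melanocyte differentiation genes fell with the score. Of 23 listed 21 were tested, 15 fell and 0 rose, against 6.3% falling of all genes, and the median slope was -0.51. That melanocyte and T cell levels run opposite in these tumours was already known from these data, so the direction of the list is no independent evidence. The mean level of the list was 11.67, 11.59, 11.47, 10.66, 10.80, 10.75, 10.86 and 9.86 in the order of rising score. Tumours 6, 5 and 7 lay above the other 5, tumours 1, 4, 3 and 8 lay together, and tumour 2 lay lowest.

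Trpm1, a cation channel of melanocytes, was 11.09, 10.81, 11.02, 9.23, 9.41, 9.56, 9.25 and 7.06 in the order of rising score (slope -1.09 ± 0.12, limma adjusted p = 0.00165). Gpr143, the melanosomal receptor of ocular albinism, was 11.19, 11.29, 11.19, 9.66, 9.58, 9.30, 9.15 and 7.88 (slope -1.02 ± 0.09, limma adjusted p = 0.000828). Oca2, a melanosomal anion channel, had a slope of -1.03 ± 0.12 (limma adjusted p = 0.00195), Slc45a2, a melanosomal transporter, one of -0.84 ± 0.10 (limma adjusted p = 0.00196) and Tyr, tyrosinase, the first enzyme of melanin synthesis, one of -0.92 ± 0.17 (limma adjusted p = 0.0103, and 0.108 without tumour 2). Mitf itself ran between 5.21 in tumour 2 and 8.61 in tumour 6 (slope -0.83 ± 0.20, limma adjusted p = 0.0291), though it was 8.21 in tumour 7 and 8.25 in tumour 8, the tumours of 1 slide, where its slope was 0.03.

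Pmel, Tyrp1 and Mlana, bright antigens of the pigment cell, also fell. Pmel, which encodes gp100, the target of the transferred cells, was 15.14, 14.90, 15.03, 13.83, 14.50, 13.98, 14.51 and 12.84 in the order of rising score (slope -0.58 ± 0.11, limma adjusted p = 0.0137), and its other probe gave -0.68. Tumour 2 was lowest, and without it the slope was -0.42 and did not pass (limma adjusted p = 0.183). Mlana, the melanoma antigen MART-1, had a slope of -0.39 ± 0.08 (limma adjusted p = 0.0155), and Tyrp1, a melanin enzyme, one of -0.43 ± 0.10 (limma adjusted p = 0.0265). Dct, another melanin enzyme, stayed between 14.53 and 14.98 in all 8 tumours (slope -0.06 ± 0.06, limma adjusted p = 0.482). Its other probe ran between 14.07 and 14.90, with a slope of -0.13. Pmel fell from a like brightness, and whether a change in Dct could be seen at this brightness was not tested. Met, the receptor of hepatocyte growth factor, had a slope of -0.61 ± 0.06 (limma adjusted p = 0.00104). Cdk2, a cell cycle kinase gene next to Pmel on chromosome 10, had one of -0.51 ± 0.05 (limma adjusted p = 0.00122). Under the slide block 15 fell (median -0.46) and Kit rose, and without tumour 2 6 fell (median -0.42).

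**Figure D4:**
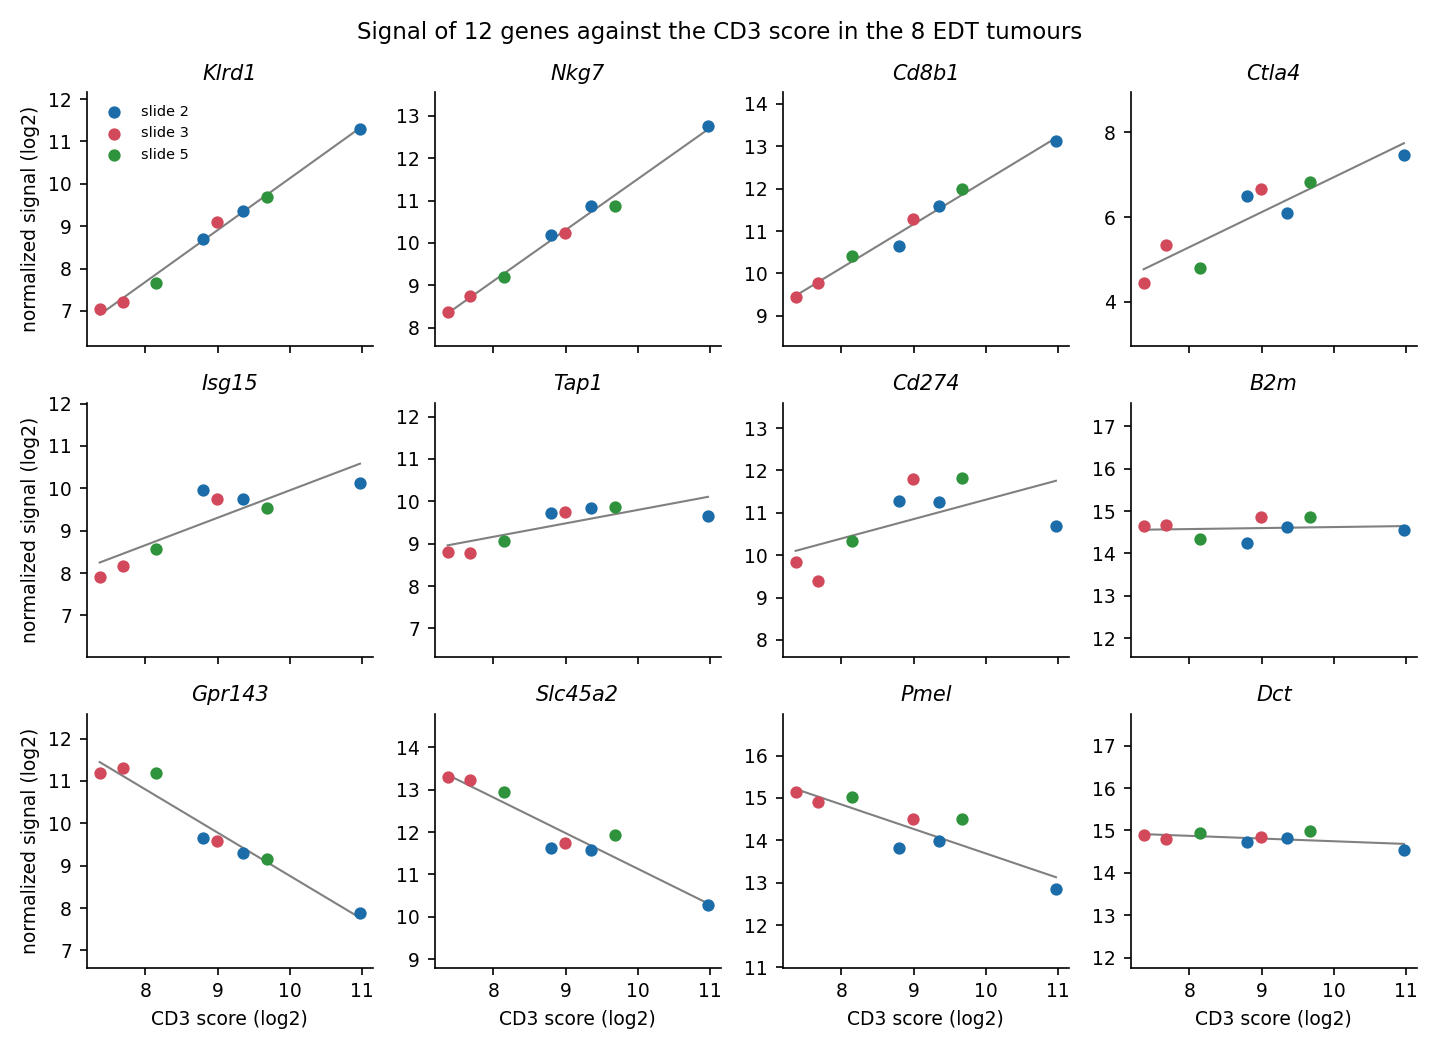
Normalized log2 signal of 12 genes (y axes, each spanning 6 log2 units) against the CD3 score (x axes, log2) in the 8 EDT tumours, coloured by slide, with the fitted line. Klrd1, Nkg7 and Cd8b1 lie close to their lines, Isg15, Tap1 and Cd274 lie below their lines in tumour 2 (right-most point), and Gpr143, Slc45a2 and Pmel fall. B2m and Dct are level, near the top of the signal range.

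The M-box TCATGTG, a motif that MITF binds, was searched on both strands in the same promoter windows. It was found for 5 of 14 melanocyte genes with a window, Tyr, Tyrp1, Dct, Trpm1 and Mc1r, against 2.85% of the 7855 tested genes that have one and 3.77% of all 32851 windows. Of 491 falling genes with a window 5.5% held it, and of 435 rising genes 3.45%. Of the 5, Trpm1, Tyr, Tyrp1 and Mc1r fell and Dct did not pass, while Oca2, Rab27a, Cdk2, Met and Mitf fell without a match in their window. Tyr, Tyrp1, Trpm1 and Dct are shown because they hold the same letters and had slopes of -0.92, -0.43, -1.09 and -0.06; the capitals mark the matches, of which Dct has 2, one on each strand. The windows are chr7:87493463-87493762 (minus strand) for Tyr, chr4:80833963-80834262 (plus) for Tyrp1, chr7:64153585-64153884 (plus) for Trpm1 and chr14:118052197-118052496 (minus) for Dct, in GRCm38.p6, each printed 5′ to 3′ along the gene.
Tyr: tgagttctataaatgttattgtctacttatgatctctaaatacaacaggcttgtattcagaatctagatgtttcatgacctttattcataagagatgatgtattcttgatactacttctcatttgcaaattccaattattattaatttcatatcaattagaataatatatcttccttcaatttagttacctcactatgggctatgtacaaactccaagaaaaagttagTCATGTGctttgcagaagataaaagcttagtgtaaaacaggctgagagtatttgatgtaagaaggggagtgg
Tyrp1: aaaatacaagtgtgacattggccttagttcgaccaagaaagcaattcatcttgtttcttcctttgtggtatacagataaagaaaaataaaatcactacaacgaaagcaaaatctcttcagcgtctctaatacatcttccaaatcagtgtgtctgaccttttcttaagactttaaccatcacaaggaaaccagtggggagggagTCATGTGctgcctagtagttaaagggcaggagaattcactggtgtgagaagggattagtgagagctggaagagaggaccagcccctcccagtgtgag
Trpm1: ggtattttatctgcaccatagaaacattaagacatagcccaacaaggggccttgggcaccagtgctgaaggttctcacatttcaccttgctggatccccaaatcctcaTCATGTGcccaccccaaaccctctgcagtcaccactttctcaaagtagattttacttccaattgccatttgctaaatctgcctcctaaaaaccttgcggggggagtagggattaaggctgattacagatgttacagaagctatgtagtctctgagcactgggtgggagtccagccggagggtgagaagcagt
Dct: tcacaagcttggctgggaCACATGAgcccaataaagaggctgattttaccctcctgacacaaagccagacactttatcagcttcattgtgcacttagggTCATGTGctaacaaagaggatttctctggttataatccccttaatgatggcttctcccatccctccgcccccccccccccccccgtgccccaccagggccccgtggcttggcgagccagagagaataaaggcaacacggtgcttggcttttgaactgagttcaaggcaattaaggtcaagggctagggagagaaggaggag

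Other genes with the largest falls included regulators and enzymes outside the list. The long noncoding RNA Lncbate10 had the steepest negative slope (-1.23 ± 0.14, limma adjusted p = 0.00192) and ran between 8.91 in tumour 6 and 4.77 in tumour 2. Ppargc1a, the coactivator PGC-1 alpha of mitochondrial genes, was 10.59, 10.77, 10.83, 8.72, 9.33, 8.89, 9.98 and 7.49 in the order of rising score (slope -0.87 ± 0.18, limma adjusted p = 0.0173, and 0.185 without tumour 2). Pparg, a nuclear receptor of fat metabolism, had a slope of -0.65 ± 0.12 (limma adjusted p = 0.0119), whereas Adipoq, the defining adipocyte hormone, had one of 0.84 ± 0.29 (limma adjusted p = 0.0919). Brca1, a DNA repair gene, was 8.14, 7.38 and 7.72 in tumours 6, 5 and 7 and between 4.92 and 5.96 in the other 5 (slope -0.92 ± 0.14, limma adjusted p = 0.00599). The remaining genes of this set were Cpne4, Gpr158, Gsta1, Efcab1, Tspan10 and Prss12, with slopes between -0.99 and -0.80. Although Ppargc1a fell, 0 of 22 tested oxidative phosphorylation genes changed at the threshold (limma, adjusted; median slope -0.08, slopes between -0.19 and 0.16).

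Genes of cholesterol synthesis fell. Of 16 listed 10 were tested, 7 fell (70%, against 6.3% of all genes) and 0 rose, with a median slope of -0.46. Nsdhl, a sterol dehydrogenase, ran between 7.75 in tumour 2 and 9.88 in tumour 5 with a median of 8.84 (slope -0.60 ± 0.11, limma adjusted p = 0.0112), and Dhcr7, the last enzyme of the pathway, had a slope of -0.44 ± 0.09 (limma adjusted p = 0.0131). Idi1, an isoprenoid isomerase, had one of -0.38 ± 0.08 (limma adjusted p = 0.0196). Cyp51, Lss, Fdps and Sqle also fell. The mean level of the list was 10.12, 10.19, 9.87, 9.03, 9.32, 8.87, 9.50 and 8.65 in the order of rising score, high in tumours 6, 5 and 7. Under the slide block the median was -0.28 and 2 fell, and without tumour 2, or with the number of detected probes as a covariate, 0 fell, with medians of -0.51 and -0.45. The CCAAT box was present in the windows of 8 of 8 members that have one, against 42.9% of tested genes. Of these 8, Insig1, Mvd and Srebf2 did not pass. Over all genes with a window it was as common among falling genes (43% of 491) as among those tested, and was found in 33.6% of 435 rising genes. The window of Nsdhl, the member with the smallest p, is shown with its 4 matches on either strand in capitals (chrX:72918271-72918570, plus strand, GRCm38.p6).
Nsdhl: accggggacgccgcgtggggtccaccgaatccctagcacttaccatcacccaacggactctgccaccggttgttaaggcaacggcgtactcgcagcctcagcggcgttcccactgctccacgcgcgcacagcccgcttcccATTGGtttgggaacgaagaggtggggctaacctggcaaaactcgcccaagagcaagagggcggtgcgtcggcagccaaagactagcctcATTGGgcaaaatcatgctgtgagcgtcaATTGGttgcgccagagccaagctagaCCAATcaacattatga

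Of 21 fibroblast and matrix genes 19 were tested, 11 rose (57.9%, against 5.95% of all genes) and 0 fell, with a median slope of 0.67. This count depended on single tumours: 1 gene rose without tumour 2 (median 0.62) and 3 without tumour 3, 6 or 7, while 14 rose with slide as a block (median 0.86). Thy1, which T cells and fibroblasts both carry and which stands in both lists, had a slope of 0.92 ± 0.12 (limma adjusted p = 0.00297). Timp1, a metalloproteinase inhibitor, had one of 0.72 ± 0.11 (limma adjusted p = 0.0053), and Pdgfrb, a mesenchymal receptor kinase, one of 0.48 ± 0.09 (limma adjusted p = 0.0131). Collagen genes had wider errors, Col3a1 with 0.95 ± 0.23 (limma adjusted p = 0.029) and Col1a1 with 0.86 ± 0.22 (limma adjusted p = 0.0354). In the dedifferentiation and neural crest list 6 of 14 rose (42.9%, against 5.95% of all genes) and 1 fell (7.14%, against 6.3%), with a median slope of 0.38. Without tumour 2 these counts were 2 and 0 (median 0.32), and without tumour 6 they were 1 and 0. The mean level of the list was highest in tumours 2, 4 and 3 (9.20, 8.81 and 8.55), with 8.39 in tumour 8. Tumours 2, 4 and 3 also had the highest levels of the keratinocyte genes described below. Tnc was 12.20, 11.19 and 10.75 in them and 10.04 in tumour 8. Which cells made these signals was not tested. Tnc, the matrix protein tenascin C, ran between 7.99 and 12.20 (slope 1.11 ± 0.17, limma adjusted p = 0.00599, and 0.0608 without tumour 2), Nt5e, the ectoenzyme CD73, had a slope of 0.68 ± 0.11 (limma adjusted p = 0.00806) and Tgfbi one of 0.57 ± 0.13 (limma adjusted p = 0.0216), Egfr, Wnt5a and Ngfr also rose, and Sox9 fell (slope -0.40 ± 0.10, limma adjusted p = 0.0354).

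Keratinocyte genes, whose cells belong to skin, differed widely between the pieces. Their list level was 5.96, 7.12, 5.08, 4.87, 10.21, 9.12, 4.92 and 10.48 in the order of rising score, so tumours 4, 3 and 2 held far more of this signal than the other 5. Krt14, a basal keratin, was 14.40, 12.96 and 14.04 in these 3 and between 4.71 and 10.15 in the rest, and was detected on 6 arrays. All 11 tested members (15 listed) had positive slopes with a median of 1.04, and 0 passed the test (limma, adjusted). The smallest adjusted p was 0.0676 for Sfn (slope 0.95 ± 0.30). Skeletal muscle genes, which lie under skin, had a median slope of 0.36 with 0 of 13 called in limma, and their list level was 5.48 in tumour 6 and 9.90 in tumour 5. Erythroid genes had 0 of 4 called, with Hba-a1 at 12.67 to 14.72. With the keratinocyte level as a covariate, chosen after seeing the data, 211 genes rose and 159 fell. In that fit 16 of 17 T cell genes rose (median 0.87), 10 of 21 melanocyte genes fell (median -0.45), 2 of 19 matrix genes rose (median 0.41) and 0 of 10 cholesterol genes fell (median -0.45). Without tumours 4, 3 and 2, also chosen after seeing the data, 22 genes rose and 0 fell over the 5 tumours left, where 1330 genes had an unadjusted p under 0.05. There 3 of 17 T cell genes rose (median 0.78), 0 of 21 melanocyte genes fell (median -0.37) and 0 of 19 matrix genes rose (median 0.39). The part of skin in the results was not tested beyond these fits.

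Counts in lists of general programmes are read against 5.95% rising and 6.3% falling over all tested genes. In the cell cycle list 1 of 19 tested genes rose (5.26%), Tyms, thymidylate synthase (9.12 to 10.05, slope 0.24 ± 0.06, limma adjusted p = 0.0283), and the median slope was -0.02. Cdk1, the mitotic kinase, had a slope of 0.15 ± 0.05 (limma adjusted p = 0.0946), and Mki67 had no probe with 1 symbol. None of 17 cytosolic ribosomal protein genes (median 0.07), 16 hypoxia and glycolysis genes (median -0.02), 19 endoplasmic reticulum stress genes (median 0.02), 15 immediate early and heat shock genes (median 0.14) and 17 core proteasome genes (median 0.02) changed at the threshold (limma, adjusted). The heat shock gene Hspa1a came nearest among them, between 6.25 and 9.38 (slope 0.78 ± 0.23, limma adjusted p = 0.0536). Of 10 p53 targets 1 rose (10%), the death receptor gene Fas (5.95 to 8.13, slope 0.57 ± 0.14, limma adjusted p = 0.0312), which interferon gamma also induces, while Cdkn1a had a slope of 0.27 ± 0.11 (limma adjusted p = 0.14). In the lysosome list the vacuolar pump subunits Atp6v1b2 (slope -0.27 ± 0.05, limma adjusted p = 0.0132) and Atp6v0d1 (slope -0.26 ± 0.06, limma adjusted p = 0.0283) fell and the protease gene Ctsh rose (slope 0.38 ± 0.09, limma adjusted p = 0.0255), of 15 tested (13.3% falling and 6.67% rising). Of 13 endothelial genes 1 fell (7.69%), Vwf, von Willebrand factor (slope -0.51 ± 0.13, limma adjusted p = 0.0354), with a list median of 0.21 and Cdh5 at 0.28 ± 0.11 (limma adjusted p = 0.133). With slide as a block Tyms, Fas, Atp6v1b2, Atp6v0d1, Ctsh and Vwf did not pass (limma adjusted p = 0.145, 0.0601, 0.0556, 0.114, 0.101 and 0.173).

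The genes whose profile over the 8 tumours was most like the score, by Pearson's r and given as a description, were Klrd1 (r = 0.996), Nkg7 (r = 0.996), Ptpn18 (r = 0.994), Cd8b1 (r = 0.992), Jaml (r = 0.992), Rhof (r = 0.990), Glipr2 (r = 0.986), Lat (r = 0.984), Sh2d2a (r = 0.984) and Cd160 (r = 0.982). Cd160, a receptor of natural killer and CD8+ T cells, ran between 6.20 and 9.26. Jaml, a junctional adhesion molecule of leukocytes, ran between 5.66 and 9.56, and Rhof, a small GTPase, between 4.84 and 8.61 with detection on 6 arrays. Among the steepest rising genes, Prl2c4, Prl2c3 and Prl2c2, placental hormones of the prolactin family also called proliferins, had slopes of 1.60 ± 0.39, 1.57 ± 0.37 and 1.57 ± 0.30 (limma adjusted p = 0.0316, 0.0276 and 0.0116). These genes are near-identical copies whose probes cannot be taken as separate, and each was highest in tumours 2 and 1 (Prl2c2 at 12.41 and 10.11, with 5.83 in tumour 5). All 3 calls were lost without tumour 2, where the slopes of Prl2c4, Prl2c3 and Prl2c2 lay between 1.0 and 1.16 (limma adjusted p = 0.336, 0.285 and 0.165), and with slide as a block, where they lay between 0.86 and 1.10 (limma adjusted p = 0.248, 0.197 and 0.109). Pf4, platelet factor 4, was lowest in tumour 6 at 6.96 (slope 1.18 ± 0.21, limma adjusted p = 0.00937). Reg1, a secreted lectin gene, had a slope of 1.23 ± 0.31 (limma adjusted p = 0.0345) and Cstdc4, a stefin-like protease inhibitor gene, one of 1.28 ± 0.33 (limma adjusted p = 0.0375), each detected on 5 arrays. Without tumour 2 Pf4, Reg1 and Cstdc4 did not pass (limma adjusted p = 0.138, 0.193 and 0.352). Rarres2, which encodes the chemoattractant chemerin, had a slope of 1.12 ± 0.14 (limma adjusted p = 0.00221), and of its 2 other detected probes one gave 1.07 and one -0.43, so its probes disagreed.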

How the data were processed

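Per the labels, total RNA of each tumour was hybridized to 1 Illumina bead array. The authors deposited raw bead intensities without background correction, and 4 mistyped rows were left out. Per the file headers, the deposited table also gives a detection p-value for each probe and array; the values step as shares of negative control beads would. Their processed log2 values, deposited with the normalization method not given in the sources used here, served as an alternative. A second table, of other groups, was not used here. Intensities of the 16 arrays of the first table were background-corrected and quantile-normalized with neqc (offset 16, limma 3.58.1, R 4.3.3). Probes needed 1 gene symbol and a detection p under 0.01 on at least 3 of 8 EDT arrays; the brightest probe stood for a gene, giving 9687 genes, of which the 4 score genes were not tested. Slopes on the score were fitted with lmFit and eBayes and adjusted by Benjamini-Hochberg over 9683 genes; the fit was tested on simulated data. Tumours, lists and alternatives were chosen with earlier results of these data known. Named genes were the score genes, the 15 steepest slopes in each direction among calls that kept their sign without any 1 tumour, the 3 smallest p of each list, the 10 most like the score, and a fixed set; other list members named were picked after their values were seen. The precision is limited by the number of arrays.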

Additional observations from a re-analysis of the deposited data

Results flagged for a closer look

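In 4 of 125 values examined, 1 tumour lay far from the other 7 by Dixon's criterion for 8 samples, which sets the gap to the nearest value against the whole range, and in all 4 it was tumour 2. Chance flags about 1 in 20 groups. Gzmk was 9.351 there, with 6.68 as the next value (gap over range 0.558). Cd96 was 7.283, with 5.705 as the next value (0.613). Camp was 8.765, with 6.652 as the next value (0.562). Trpm1 was lowest at 7.057, with 9.226 as the next value (0.538).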

How the results depend on the processing

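No paired analysis was possible because only 1 group was compared within itself. Against 1186 calls (576 rising, 610 falling), the counts were 764 with median centring (508 and 256), 826 with slide as a fixed block (487 and 339), 276 with the number of detected probes as a covariate (154 and 122), and 1966 with array weights (954 and 1012). With choices added after seeing the data they were 370 with the keratinocyte level as a covariate (211 and 159) and 22 without tumours 2, 3 and 4 (22 and 0). Leaving out 1 tumour gave between 310 and 1553 calls, 168 to 750 rising and 99 to 803 falling. The other settings gave 904 to 1394. Of 87 named genes followed 79 passed; 24 of these did not with slide as a fixed block, 34 without tumour 2, 38 without tumour 6, 42 with the number of detected probes and 33 with the keratinocyte level as a covariate, and 74 without tumours 2, 3 and 4. Slopes' signs turned only for values that did not pass or within single slides: Gapdh was 0.0496 with the authors' values and 0.0132 without tumours 2, 3 and 4, and -0.0353 to 0.028 without 1 tumour; B2m was -0.0265 over mean probes, -0.0452 with detected probes and -0.0166 with the keratinocyte level as covariates, and -0.00219 to 0.0784 without 1 tumour; Actb was 0.116 with slide as a block; Dct was 0.031 without tumours 2, 3 and 4, and -0.0864 to 0.0154 without 1 tumour; Foxp3 was -0.142 to 0.000423 without 1 tumour. Within slide 2 Tapbpl was -0.116 and Ifi47 -0.016, and within slide 5 Mitf was 0.0278. The raw median's r with the score lay between -0.695 and 0.0705 without 1 tumour. The cause was not tested.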
